A study of Danio rerio with 3 samples.

Results

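The genes described here are 6 Krüppel-like factor genes of the zebrafish, klf17, klf2a, klf2b, klf4, klf3 and klf6a, chosen by their symbols among the 25386 genes of the deposited table. They are 6 of the 22 klf genes listed there, and 5 of them reached 1 FPKM (fragments per kilobase of transcript, scaled by the mapped fragments of the library) in at least 1 library. Poly(A) RNA came from whole dechorionated zebrafish embryos of wild-type genotype, with 1 library in each of 3 groups. The WGA group at 5 hours post fertilisation (hpf) and the WGA group at 4.3 hpf had each received a yolk injection of 0.65 ng of wheat germ agglutinin (WGA) in 1 nl as 1-cell embryos, and the 5 hpf embryos looked like dome stage. The control group was untreated and was collected at 4.3 hpf, the dome stage. WGA is a lectin that binds sugar-modified nucleoporins and blocks the nuclear pore, and the series asks how this bears on zygotic genome activation, when the embryo starts to transcribe its own genes. The labels name no mock injection and no number of embryos per library, so effects of injection and of WGA cannot be told apart.

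Krüppel-like factors bind GC-rich and CACCC-type DNA through zinc fingers near the C-terminal end of the protein, and their N-terminal parts recruit either activating or repressing partners. Several of them act in epithelia, blood and endothelium. In zebrafish, klf17 (also called biklf) is needed for the hatching gland and for early red blood cells. The klf2a and klf2b genes are a pair of copies of a single klf2 gene, and klf2a is known as a gene that responds to blood flow in the endothelium.

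Under WGA the 3 members most abundant in control embryos, klf17, klf2a and klf2b, stood at 15.4% to 34.0% of their control FPKM, while klf6a stood more than 2-fold above control. The klf3 value was lower by less than 2-fold on the scale used, and klf4 was near the bottom of the range in every library. There is no replicate in any group, so none of these differences has a replicate check and no p-value was computed. Ratios are log2 ratios of (FPKM + 1), which understate the change of low genes, and a gene was called high or low when it differed by at least 2-fold and had 1 FPKM or more in either library. In whole embryos, fewer cells that express a gene and less RNA per cell cannot be told apart.

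The klf17 gene (NCBI Gene 65238) was at 23.62 FPKM in WGA embryos at 5 hpf, 32.77 FPKM in WGA embryos at 4.3 hpf and 109.47 FPKM in control embryos. Both WGA libraries were thus low and the control high. At the matched time of 4.3 hpf the WGA value was 29.9% of control, a log2 ratio of -1.71. At the matched stage, which sets WGA embryos of 5 hpf against the control, it was 21.6% of control, a log2 ratio of -2.17. Counted from the lowest ratio, klf17 was at place 536 of 14263 genes at the matched time and at place 166 of 14158 genes at the matched stage. It was the most abundant member in each of the 3 libraries.

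The klf2a gene (117508) had 6.29 FPKM in WGA embryos at 5 hpf, 7.99 FPKM in WGA embryos at 4.3 hpf and 40.91 FPKM in control embryos. This was the lowest ratio among the members in both comparisons with control, with log2 ratios of -2.22 at the matched time (19.5% of control) and -2.52 at the matched stage (15.4% of control). Its places from the lowest were 229 and 76 among the same 14263 and 14158 genes. Its copy klf2b (117509) had 3.24 FPKM in WGA embryos at 5 hpf, 4.46 FPKM in WGA embryos at 4.3 hpf and 13.13 FPKM in control embryos. The log2 ratios of klf2b were -1.37 at the matched time and -1.74 at the matched stage, so both copies were low in both WGA libraries. The FPKM of klf2a was 1.94 times that of klf2b in WGA embryos at 5 hpf, 1.79 times in WGA embryos at 4.3 hpf and 3.12 times in control embryos. Where reads match both copies, the counting may have divided them by estimate. That would make both the split between klf2a and klf2b and the direction of klf2b less certain. Shared reads were not examined.

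The klf6a gene (280650), known in zebrafish as copeb and needed there for the growth of the liver and gut, was the member above control. It had 14.16 FPKM in WGA embryos at 5 hpf, 12.93 FPKM in WGA embryos at 4.3 hpf and 5.69 FPKM in control embryos. The WGA values were 249% of control at the matched stage and 227% at the matched time, with log2 ratios of 1.18 and 1.06. These sit close to the 2-fold limit, and a pseudocount of 5 FPKM took both within it. At the matched time 93.7% of the 14263 genes had a lower ratio than klf6a, and at the matched stage 96.3% of the 14158 genes did.

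The klf3 gene (117603), whose mammalian counterpart is a repressor that binds the co-repressor CtBP, had 3.42 FPKM in WGA embryos at 5 hpf, 2.69 FPKM in WGA embryos at 4.3 hpf and 5.66 FPKM in control embryos. Its log2 ratios were -0.85 at the matched time and -0.59 at the matched stage, both within 2-fold. At 47.5% of control FPKM at the matched time, its place within 2-fold rests on the pseudocount, and with 0.1 FPKM in place of 1 the log2 ratio was -1.05. The klf4 gene (562155), a pluripotency factor in mammals, was at 0.25, 0.11 and 0.09 FPKM in WGA embryos at 5 hpf, WGA embryos at 4.3 hpf and control embryos. It did not pass the filter in any comparison, and values this low do not support a direction.

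**Figure D1:**
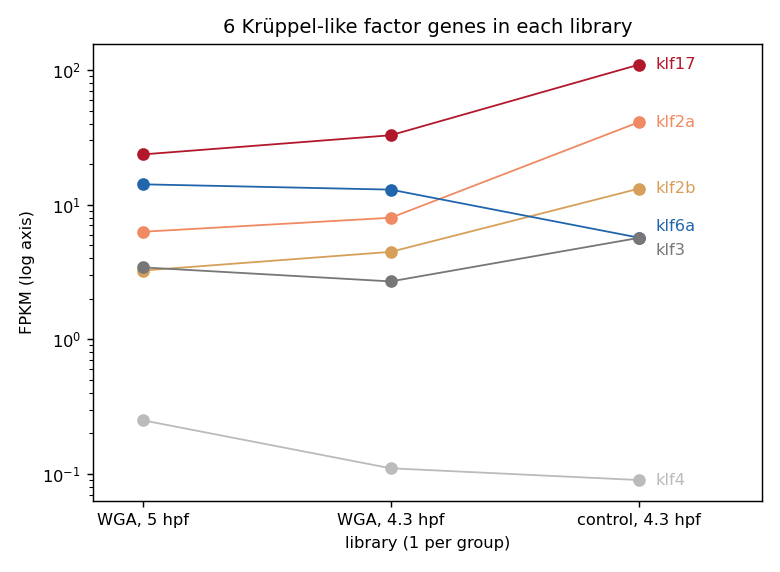
FPKM (log axis) of the 6 members in each of the 3 libraries, 1 point per library. The points for klf17, klf2a and klf2b are low in both WGA libraries and high in control, those for klf6a run the other way, and klf4 stays at 0.25 FPKM or less.

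Of the 5 members measured at the matched time, 3 were lower by at least 2-fold, against 8.97% of all 14263 genes. In the same comparison 1 was higher, against 7.21% of all genes. The median log2 ratio of the 5 members was -1.37, and that of all genes was 0.03. At the matched stage 3 of 5 members were lower, against 7.92% of 14158 genes, and 1 was higher, against 5.3%, with a median of -1.74 beside -0.02 for all genes. The members were named with earlier results of these data known, so these counts describe them and are not evidence about Krüppel-like factors as a class. Both comparisons use the same control library. When the libraries were scaled to 78 cytosolic ribosomal protein genes, the median over all genes became 0.68 at the matched time and to 0.32 at the matched stage. Under that scaling 5.41% of genes were lower and 28.7% higher at the matched time, and 5.65% lower and 11.2% higher at the matched stage. The log2 ratios of klf17 and klf2b at the matched time were then -0.98 and -0.74, within 2-fold, while that of klf2a was -1.54. Such scaling moves each gene and the median of all genes nearly together. That these ratios lie below that median is therefore no check on them.

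**Figure D2:**
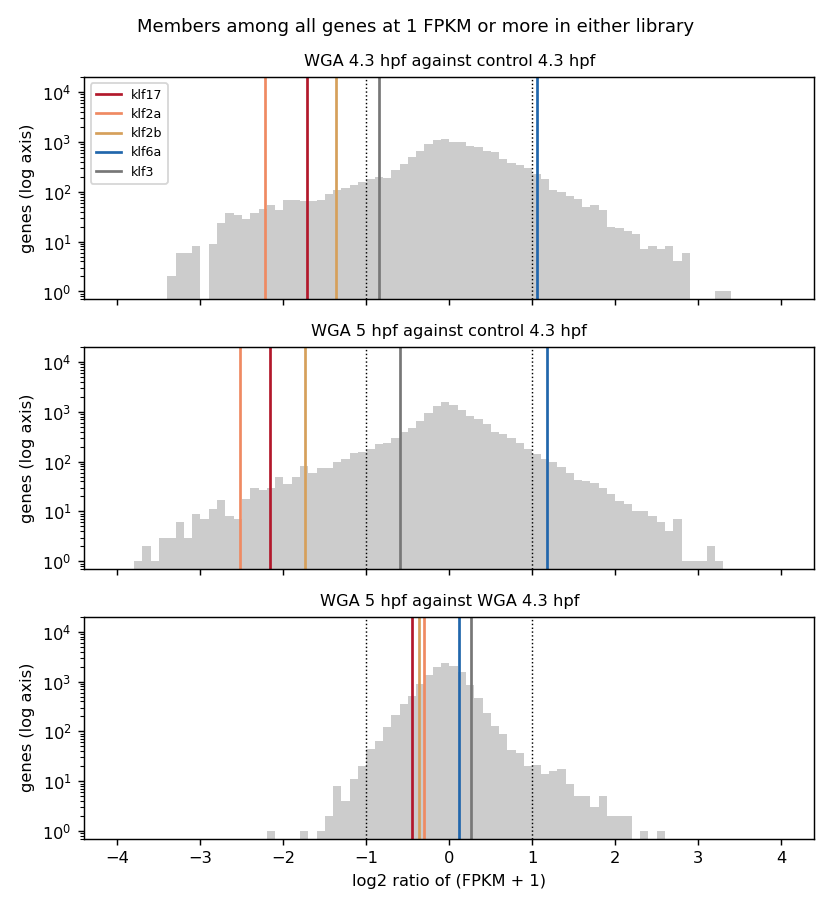
Log2 ratios of (FPKM + 1) of all genes at 1 FPKM or more in either library (grey, gene numbers on a log axis) with the 5 measured members as coloured lines and 2-fold as dotted lines. Against control, klf2a, klf17 and klf2b lie left of the lower dotted line and klf6a just right of the upper one, while between the WGA libraries all 5 lie within 2-fold.

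Between the WGA libraries, the 3 low members were lower at 5 hpf than at 4.3 hpf, by less than 2-fold. With no control library at 5 hpf, a change with age alone and a change tied to WGA cannot be told apart. The log2 ratio of WGA at 5 hpf over WGA at 4.3 hpf was -0.46 for klf17, -0.36 for klf2b and -0.30 for klf2a. Of all 13478 genes in this pair, 58.5% lay below 0, and 7.79% had a lower ratio than klf17. None of the 5 members reached 2-fold in this pair, where 0.356% of genes were lower and 0.772% higher. The klf3 and klf6a ratios were 0.26 and 0.12, and both fell below 0 under ribosomal protein scaling (-0.01 and -0.22), which put 2.77% of all genes lower and 0.554% higher. The ratios of klf17, klf2a and klf2b stayed below 0 under TPM, median-of-ratios and ribosomal protein scaling, the settings that can change a sign.

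The order of the members by FPKM, which is per length, differed between WGA and control embryos. In WGA embryos at 5 hpf the order from the highest was klf17, klf6a, klf2a, klf3, klf2b and klf4. In WGA embryos at 4.3 hpf it was klf17, klf6a, klf2a, klf2b, klf3 and klf4. In control embryos it was klf17, klf2a, klf2b, klf6a, klf3 and klf4. Neighbours in these orders can be close: klf3 and klf2b at 5 hpf under WGA (3.42 and 3.24 FPKM), and klf6a and klf3 in control (5.69 and 5.66 FPKM), cannot be ranked without replicates. The klf17 FPKM was 1.67 times that of klf6a in WGA embryos at 5 hpf, 2.53 times in WGA embryos at 4.3 hpf and 19.2 times in control embryos.

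Set against the rest of the family, the lower klf FPKM under WGA lay mostly in the members, although klf6a among them was above control. The members were named with earlier results of these data known, so this division is partly set by that choice. Summed over all 22 klf genes, the level was 118.48 FPKM in WGA embryos at 5 hpf, 130.61 FPKM in WGA embryos at 4.3 hpf and 247.02 FPKM in control embryos. The 16 other klf genes summed to 67.5, 69.66 and 72.07 FPKM in the same order of libraries. The 6 members made up 43.0% of the klf sum in WGA embryos at 5 hpf, 46.7% in WGA embryos at 4.3 hpf and 70.8% in control embryos. The share of klf17 alone was 19.9%, 25.1% and 44.3% in that order. In both WGA libraries the most abundant klf gene was klf8, at 39.4% of the sum at 5 hpf and 34.7% at 4.3 hpf, against 20.1% in control, where klf17 was first and klf8 second.

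**Figure D3:**
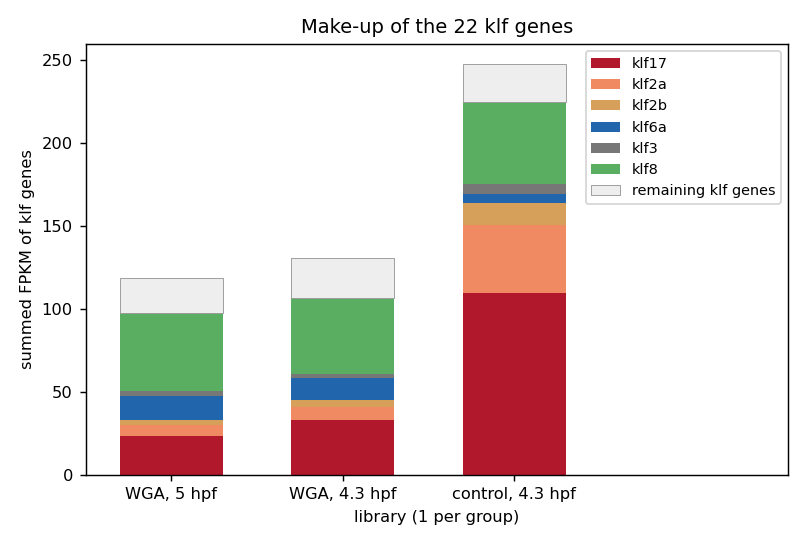
Summed FPKM of the 22 klf genes in each library, stacked by gene. The klf17 and klf2a segments account for most of the gap between the WGA bars (118.48 and 130.61 FPKM) and the control bar (247.02 FPKM), while the klf8 segment is of similar height in all 3.

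Among the 16 other klf genes, 9 passed the filter at the matched time, of which 0 were at least 2-fold lower and 1 was higher, with a median log2 ratio of -0.13. At the matched stage the counts were again 0 lower and 1 higher of 9, with a median of -0.10. Both medians were above 0 under ribosomal protein scaling, and the first also under TPM rescaling, with no filter on low values and with a filter at 5 FPKM. Of all genes, 8.97% were lower and 7.21% higher at the matched time, and 7.92% and 5.3% at the matched stage. Counts over 9 genes are too small to set apart from these shares. The klf8 gene, whose mammalian counterpart also binds CtBP, had 46.72 FPKM in WGA embryos at 5 hpf, 45.34 FPKM in WGA embryos at 4.3 hpf and 49.55 FPKM in control embryos. The gene above control was klf9, known in vertebrates as a gene induced by glucocorticoids, at 6.10 FPKM in WGA embryos at 5 hpf, 6.75 FPKM in WGA embryos at 4.3 hpf and 2.43 FPKM in control embryos. Its log2 ratios were 1.18 at the matched time and 1.05 at the matched stage, close to those of klf6a. The klf11b gene had 3.28, 3.85 and 7.19 FPKM in the same order of libraries. Its log2 ratios of -0.76 and -0.94 fell short of 2-fold, although without the added 1 FPKM it was at 45.6% of control at the matched stage. Its copy klf11a had 2.23 FPKM in WGA embryos at 5 hpf, 5.59 FPKM in WGA embryos at 4.3 hpf and 4.08 FPKM in control embryos, and was the klf gene that differed by 2-fold between the WGA libraries (log2 ratio -1.03), though not under median-of-ratios scaling or with a pseudocount of 5 FPKM. The klf6b gene, the copy of klf6a, was at 2.03, 1.78 and 1.42 FPKM in WGA at 5 hpf, WGA at 4.3 hpf and control, with log2 ratios of 0.20 at the matched time and 0.32 at the matched stage. The klf13 gene had 0.42 FPKM in both WGA libraries and 1.38 FPKM in control embryos, 30.4% of control, a ratio that the added 1 FPKM brings within 2-fold. With a pseudocount of 0.1 FPKM, 1 of the other klf genes was lower at the matched time and 2 at the matched stage, with TPM rescaling 1 and 1 were, and with a 1.5-fold limit 2 and 3 were. The shares of all genes lower under these settings were 12.6% and 12.0%, 10.9% and 9.82%, and 15.3% and 15.0%. The klf7b, klf5b and klf5l genes lay between 0.7 and 1.86 FPKM in all libraries.

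The sp genes encode the sister family of zinc-finger factors that bind related GC-rich sites. Of 12 sp genes, 9 passed the filter at the matched time, with 2 at least 2-fold lower and 1 higher (median log2 ratio -0.28). At the matched stage 1 was lower and 0 were higher (median -0.34). Both medians were above 0 under ribosomal protein scaling. Of all genes, 8.97% were lower and 7.21% higher at the matched time, and 7.92% and 5.3% at the matched stage. The sp counts, over 9 genes, are too small to set apart from these shares. The genes that were low were sp5a and sp5l, both Wnt targets in zebrafish. The sp5a gene had 2.22 FPKM in WGA embryos at 5 hpf, 1.3 FPKM in WGA embryos at 4.3 hpf and 11.35 FPKM in control embryos. The sp5l gene had 2.33, 1.1 and 3.97 FPKM in that order and was within 2-fold at the matched stage (log2 ratio -0.58). The sp2 gene was on the other side of control, at 22.48 FPKM in WGA embryos at 5 hpf, 24.21 FPKM in WGA embryos at 4.3 hpf and 10.86 FPKM in control embryos. The abundant genes sp1, sp3a and sp3b had log2 ratios from -0.34 to -0.05 against control. The sp8b gene was at 3.64, 5.22 and 6.93 FPKM, sp4 at 5.85, 7.89 and 4.86 FPKM, and sp9 at 0.31, 0.69 and 1.07 FPKM, in the same order of libraries, all within 2-fold of control on the scale of FPKM + 1. Without the added 1 FPKM, sp9 in WGA embryos at 5 hpf was at 29.0% of control.

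**Figure D4:**
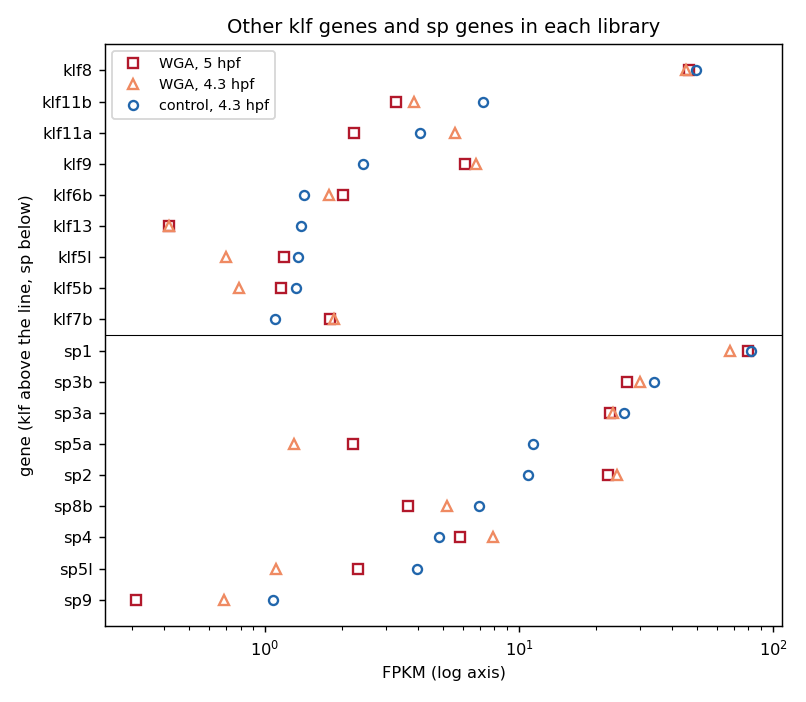
FPKM (log axis) of the klf genes outside the 6 members (above the line) and the sp genes (below it) that reached 1 FPKM in any library, with WGA at 5 hpf as squares, WGA at 4.3 hpf as triangles and control as circles. For klf8, sp1, sp3a and sp3b the symbols lie close together, for sp5a both WGA symbols lie left of control, and for klf9 and sp2 both lie right of it.

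Tissues in which klf17 and its relatives act were read through gene lists. The enveloping layer is the epithelial cover of the blastula. In its list 20 of 26 measured genes were at least 2-fold lower at the matched time and 0 higher (median log2 ratio -1.91). At the matched stage 13 of 27 were lower and 0 higher (median -0.90). Of all genes, 8.97% were lower at the matched time and 7.92% at the matched stage. Between the WGA libraries 10 of 25 genes of the list were higher at 5 hpf and 0 lower (median 0.44), where 0.772% of all genes were higher. The 10 higher genes were structural. Of 15 measured keratin, junction and annexin genes 10 were higher by 2-fold or more, with a median log2 ratio of 1.34, whereas of 9 measured transcription factor genes of the list 0 were higher, with a median of -0.0089. The division of the list by role was made after its values were seen, so it is no support for a difference by role. That difference was not tested. A count of 0 among 9 genes does not set the transcription factor genes apart from the 0.772% of all genes. The highest ratio in this pair was that of krt5, a keratin gene. Its values were 14.08 FPKM in WGA embryos at 5 hpf, 1.54 FPKM in WGA embryos at 4.3 hpf and 24.89 FPKM in control embryos. The keratin genes krt92, krt4 and krt18 had log2 ratios between the WGA libraries of 2.18, 1.66 and 1.41. In this pair klf17, klf2a and klf2b lay below 0. Of the 9 transcription factor genes, 5 lay below 0 and 4 above it. Of those factors grhl3, which encodes an epithelial regulator, had 26.30 FPKM in WGA embryos at 5 hpf, 27.90 FPKM in WGA embryos at 4.3 hpf and 129.57 FPKM in control embryos. Over all settings run, the median of the structural genes in this pair ranged between 0.61 and 1.73 and the klf17 ratio between -0.81 and -0.40. The median of the transcription factor genes ranged between -0.35, under ribosomal protein scaling, and 0.04, under median-of-ratios scaling.

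**Figure D5:**
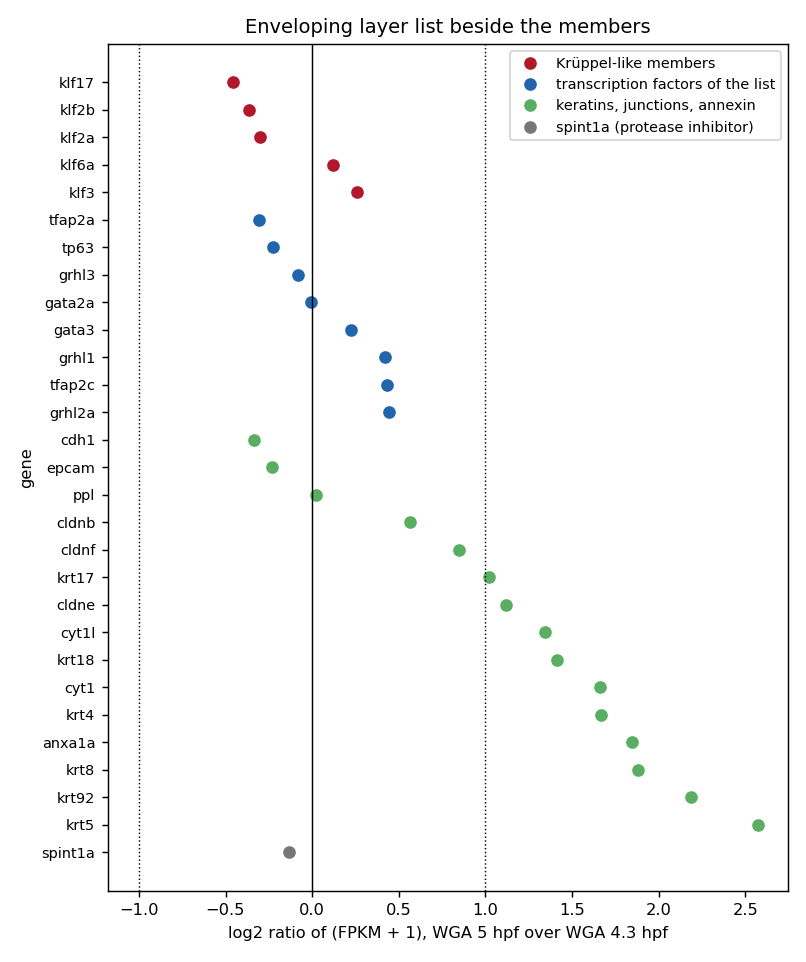
Log2 ratio of (FPKM + 1) of WGA at 5 hpf over WGA at 4.3 hpf for the 5 measured members and genes of the enveloping layer list, by role, with 2-fold as dotted lines. Keratin genes lie to the right of the upper dotted line, up to 2.57 for krt5, while klf17, klf2b and klf2a lie at -0.46, -0.36 and -0.30.

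Sums of markers of the cell layers in the embryo differed between the libraries. The 9 enveloping layer markers all belong to the enveloping layer list above, so they add no separate evidence. At the matched time 6 of the 26 measured genes of that list were within 2-fold, and none of these is among the markers. Among all measured genes, 8.97% were lower and 7.21% higher at the matched time, and 7.92% were lower and 5.3% higher at the matched stage. Between the WGA libraries 0.772% were higher. The summed FPKM of 9 enveloping layer markers was 303.6 in WGA embryos at 5 hpf, 110.04 in WGA embryos at 4.3 hpf and 759.98 in control embryos, with all 9 at least 2-fold lower at the matched time, 5 at the matched stage, and 8 higher at 5 hpf than at 4.3 hpf under WGA. The sum of 7 yolk syncytial layer markers was 191.94, 92.9 and 636.43 FPKM in the same order, with apoa1b at 0 in every library and 6 lower at the matched time. The sum of 5 deep cell markers was 95.69, 61.09 and 344.33 FPKM, with all 5 lower at the matched time. The sum of 4 germ cell markers was 534.02, 517.55 and 246.04 FPKM, with 1 higher by 2-fold or more, buc. The part of these layers in the klf values was not tested. Between the WGA libraries the sum of the enveloping layer markers at 5 hpf was 276% of that at 4.3 hpf. For the yolk syncytial layer, deep cell and germ cell markers it was 207%, 157% and 103%. The marker grhl3 was at 94.3% and klf17 at 72.1%.

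Most genes of the hatching gland list and of the blood and endothelium list were below 1 FPKM in every library, so the tissues that klf17 and klf2a later serve gave few values. In the hatching gland list 4 of 10 genes passed the filter at the matched time. At least 2-fold lower were 2 of them, against 8.97% of all genes: ctsll, which encodes a cathepsin L-like protease, and the forkhead gene foxa3. The ctsll gene had 10.34 FPKM in WGA embryos at 5 hpf, 1.17 FPKM in WGA embryos at 4.3 hpf and 21.90 FPKM in control embryos, and foxa3 had 11.16, 3.79 and 30.79 FPKM in that order. The other genes measured, xbp1 and cd63, were within 2-fold (log2 ratios at the matched time of -0.34 and -0.44). The hatching enzyme gene he1a was at 0 in every library. In the blood and endothelium list 3 of 22 genes passed the filter at the matched time. One of these, drl, had 9.13 FPKM in WGA embryos at 5 hpf, 9 FPKM in WGA embryos at 4.3 hpf and 45.29 FPKM in control embryos, while lmo2 and hhex were at 1.5 and 1.13 FPKM in control and below 1 FPKM under WGA, with hhex listed at 0 at 4.3 hpf. The red cell regulator gene gata1a was at 0 in all 3 libraries.

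Genes for partners of Krüppel-like factors, known mostly from mammals, were read as a list. Of 20 measured cofactor genes 5 were at least 2-fold higher at the matched time and 0 lower (median log2 ratio 0.21). Of all genes, 7.21% were higher and 8.97% lower. At the matched stage 2 of 20 were higher (median 0.21), near the 5.3% of all genes. Under ribosomal protein scaling the counts became 9 and 5 of 20, where 28.7% and 11.2% of all genes were higher. The acetyltransferase gene crebbpa had 28.93 FPKM in WGA embryos at 5 hpf, 30.70 FPKM in WGA embryos at 4.3 hpf and 8.83 FPKM in control embryos. Also higher at the matched time were ep300a, sin3aa and sin3ab, with log2 ratios of 1.25, 1.21 and 1.12. Their ratios at the matched stage were 0.99, 1.00 and 0.97, just within 2-fold. The co-repressor gene ctbp1 was at 233.51 FPKM in WGA embryos at 5 hpf, 223.79 FPKM in WGA embryos at 4.3 hpf and 231.36 FPKM in control embryos. None of the 20 differed by 2-fold between the WGA libraries, where 0.356% of all genes were lower and 0.772% higher. That count does not set the cofactor genes apart from these shares.

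Genes with the pattern nearest to klf17 and klf2a were found by the Euclidean distance between their 2 log2 ratios to control, over 3 libraries and 8301 candidate genes. For klf17 the nearest were znfl1 (distance 0.11), the immediate early gene ier2a (0.12) and the Wnt receptor gene fzd8a (0.13), and 14 genes lay within 0.25. For klf2a they were the chemokine receptor gene cxcr4b (0.10), tsc22d3 (0.15) and sox11a (0.16), and 8 genes lay within 0.25. The cxcr4b gene, for example, had 11.16 FPKM in WGA embryos at 5 hpf, 14.02 FPKM in WGA embryos at 4.3 hpf and 65.78 FPKM in control embryos. A distance over 2 ratios that share the control library describes likeness of values and no more.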

How the data were processed

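The authors deposited 1 table of FPKM values, rounded to 2 decimals, for 25386 genes. RSEM 1.2.8, Bowtie2 2.2.5 and Trimmomatic 0.36 are listed with build GRCz11 in the submitters' processing notes, with no roles or settings and no annotation release. Each of the 3 value columns was matched to its library by name. Absolute depth is unknown, and low values gave no coherent depth ratio: the sharpest peaks were 0.965, 0.955 and 1.09 for the matched time, the matched stage and the WGA pair, and 1.09 does not equal the second over the first. Log2 ratios of (FPKM + 1) were computed in Python 3.11.15 with pandas 2.3.3. Their arithmetic was checked on equal libraries in which chosen genes were changed by a set factor, without noise. That check does not measure the error of calls between single libraries. With 1 library per group there was no test.

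The members and lists were chosen with earlier results of these data known. List entries were matched by symbol or, for 6, by current symbol in a RefSeq gene table of GRCz12tu, used for names and gene order alone. The hatching gland list had 1 unmatched entry, and a pair of its entries reached the same gene. Genes were named by a rule: the 6 members, other klf and sp genes at 1 FPKM or more, in each list up to 4 genes with the largest ratios to control, and the 3 nearest patterns of klf17 and klf2a. The genes sin3ab, grhl3, ctbp1, he1a and gata1a, and those flagged for opposite ratios, were named after their values were seen. Some genes that the rule names are not reported here. Alternatives were other pseudocounts, filters, scalings and a 1.5-fold limit.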

Additional observations from a re-analysis of the deposited data

Results flagged for a closer look

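In 3 genes the ratios to control had opposite signs at the 2 WGA times and lay 2-fold or more apart, and the difference was not tested. The klf11a log2 ratio was -0.65 at 5 hpf and 0.38 at 4.3 hpf, a difference of -1.03. The keratin gene krt17 had 0.53 at 5 hpf and -0.49 at 4.3 hpf, a difference of 1.02, at no more than 1.21 FPKM in any library. The type I keratin gene cyt1l was at 1.54 FPKM in WGA embryos at 5 hpf, 0 FPKM in WGA embryos at 4.3 hpf and 1.36 FPKM in control embryos, a difference of 1.34.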

How the results depend on the processing

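The log2 ratios to control of klf17, klf2a, klf2b, klf3 and klf6a kept their sign under TPM, median-of-ratios and ribosomal protein scaling. Other pseudocounts, filters and fold limits cannot change a sign, so they are no check of direction. The number of members lower at the matched stage stayed at 3 except for 4 with a 1.5-fold limit, where 15.0% of all genes were lower. The number lower at the matched time was 1 under ribosomal protein scaling and 2 with a pseudocount of 5 FPKM. It was 4 with a pseudocount of 0.1 FPKM and with a 1.5-fold limit, against 3 as reported. In that order of settings 5.41%, 3.73%, 12.6% and 15.3% of all genes were lower. The number higher was 0 at the matched time with a pseudocount of 5 FPKM and under median-of-ratios scaling, and 0 at the matched stage with a pseudocount of 5 FPKM, against 1 as reported. The klf6a gene lies near 2-fold (0.75, 0.98 and 0.84). Of all genes, 3.33%, 5.99% and 2.61% were higher in that order. With a pseudocount of 5 FPKM, klf2b at the matched time was at -0.94. The hatching gland median at the matched time, over few genes, was 0.084 under ribosomal protein scaling, against -1.58 over 4 genes without it. At least 2-fold lower were 2 genes of that list in both settings. The filter is applied after scaling, so the genes that enter such a median can differ between settings. For the gene lists, 52 counts moved by more than 1.5 times and 236 did not. The number of enveloping layer genes higher at 5 than at 4.3 hpf under WGA was 6 with a pseudocount of 5 FPKM, against 10. No paired analysis was possible because each group has 1 library and no replicate could be left out. Unknown depth leaves klf4 and other genes under 1 FPKM without a usable error.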

Other observations

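Neighbours were the nearest protein-coding genes with deposited values on each side of a member on assembly GRCz12tu. Genes without deposited values were skipped. Of these 12 neighbours, 6 passed the filter and 0 of the 6 differed by 2-fold in any comparison, with log2 ratios between -0.43 and 0.84. Of all genes, 8.97% were lower and 7.21% higher at the matched time, and 7.92% and 5.3% at the matched stage. Between the WGA libraries 0.356% were lower and 0.772% higher. A count of 0 among 6 genes does not set the neighbours apart from these shares. Both neighbours of klf2a and both of klf6a were at 0.28 FPKM or less and gave no measure. The gene before klf17, rnf220a, had 10.86 FPKM in WGA embryos at 5 hpf, 11.65 FPKM in WGA embryos at 4.3 hpf and 12.95 FPKM in control embryos. Among genes with deposited values, klf2a and klf2b are each followed by a copy of eps15l1. The copy after klf2a, eps15l1a, was at 0.23, 0.15 and 0.22 FPKM in the same order of libraries. The copy after klf2b, eps15l1b, was at 17.74, 19.01 and 17.26 FPKM.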
